A study of Rattus norvegicus with 15 samples.

Results

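Cultures of rat spermatogonial stem cells that had GDNF back for 4 h were compared with control cultures, to find the transcripts that had passed their control level and those that had not yet reached it. The comparison rests on the 6 arrays whose titles name the 4 h replacement or the control, 3 of each, out of 15 in the series. The 4 h cultures grew for 1 month in serum-free medium with GDNF, then spent 18 h without GDNF, and then received it again for 4 h. The control cultures had the same month of growth with GDNF and were never deprived. The other arrays were 3 from cultures after 18 h of withdrawal, 3 from withdrawal followed by 2 h of GDNF and 3 from withdrawal followed by 8 h, and they enter here only where they show on which side of the control a gene had been before and where it went. The submitters describe the arrays of a group as coming from independent cultures, and RNA was extracted with Trizol and a column, labelled with biotin and hybridised to a single-colour array.

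Glial cell line-derived neurotrophic factor (GDNF) is made by somatic cells of the testis and keeps spermatogonial stem cells in self-renewal. It binds the co-receptor GFRA1, which brings together the receptor tyrosine kinase RET, and RET feeds the ERK, PI3K-AKT and SRC family pathways. Pathways of this kind switch on transcription factor genes within minutes to hours and also their own inhibitors, such as the Sprouty proteins and the dual-specificity phosphatases. In mouse spermatogonial stem cells GDNF is known to keep the transcription factor genes Bcl6b, Etv5 and Id4 expressed.

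The design text places the control before withdrawal, so that the loss of GDNF, its return, the added time in culture and the handling of the cultures cannot be told apart in this comparison. No group kept without GDNF for the further 4 h is analysed here. There were 31099 probe sets per array, and on each array 50.2% to 50.5% of them reached an intensity of 16, the level below which values were read as background. After leaving out 57 control probe sets and those that reached 16 on fewer than 3 arrays, 15856 probe sets were tested, and 12312 of these had 1 gene symbol and stood for 9002 named genes. The number of arrays limits the precision, and the median residual SD of a probe set was 0.102 on the log2 scale. On a principal component of the deviations from group means, replicate 1 of the control, withdrawal and 4 h groups lay at one end (-0.32, -0.49 and -0.39). The labelled cell type was checked against germ cell markers. Sall4 and Ret were measured on all 6 arrays and differed between the groups, as described below. Gfra1, the GDNF co-receptor, was below 16 on all 6 arrays, and the cause of its low signal was not tested. Ddx4, Dazl and Zbtb16 had no probe set of 1 symbol and are not analysed here, and Uchl1, a deubiquitinase abundant in spermatogonia, was 5281, 5592 and 5275 at 4 h, against 5406, 5390.3 and 5412 in the control. Defining markers of spermatids (Prm1, Prm2, Tnp1, Acr), of Sertoli cells (Gata4, Amh, Inha), of Leydig cells (Star, Cyp11a1, Insl3) and of leukocytes (Ptprc, Cd68, Csf1r) were below 16 on all 6 arrays. Other listed genes of such cells passed the filter: 7 of 14 for Sertoli cells, 3 of 15 for late germ cells and 3 of 14 for immune and blood cells. Clu of Sertoli cells was 3059 to 3288 at 4 h, against 3000 to 3132 in the control. Crem of late germ cells was 414 to 421 at 4 h, against 351 to 389 in the control. The silent markers therefore do not show that these cells were absent. Of the 20 listed genes of mesenchymal cells 13 passed the filter. The others, Col6a1, Col6a2, Pdgfrb, Thy1, Lum, Postn and Tagln, were below 16 on all 6 arrays. The fibroblast genes Col1a1, Col1a2, Col3a1, Dcn and Sparc, of those that passed, were measured on all 6 arrays. Col1a1 was 575, 605 and 625 at 4 h, against 593, 671 and 601 in the control.

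At 4 h of GDNF return the cells had not come back to the control state. Of the 15856 probe sets 1776 (11.2%) were higher and 1654 (10.4%) lower at 4 h than in the control at a limma adjusted p under 0.05, 3430 (21.6%) in all. Large differences were few: 68 probe sets (0.429%) were called at least 2-fold higher and 102 (0.643%) at least 2-fold lower. The arrays of the 2 groups did not overlap in 5467 probe sets (34.5%). Among named genes 1024 (11.4%) were higher and 1163 (12.9%) lower, with a median difference of -0.00 over all named genes and a median size of 0.12 on the log2 scale. In bulk RNA of this kind a change in the number of cells of a type and a change in RNA per cell cannot be told apart. Spiked-in hybridization controls averaged 10.5 ± 0.07 log2 units at 4 h and 10.2 ± 0.21 in the control (SD, n = 3 each), and their arrays did not overlap. An exact permutation test of this difference gave p = 0.1, the smallest that 3 against 3 arrays allow (0.171 after adjustment over 12 array measures), and its part in the counts was not tested.

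The genes that stood highest above the control included immediate early and other transcription factors, inhibitors of TGF-beta signalling, and an adaptor of the cell cycle. Sfn, which encodes the adaptor 14-3-3 sigma, known to hold cells before mitosis, was 623, 688 and 597 in the 4 h cultures, against 77.8, 67.5 and 84.4 in the control. Every 4 h array was far above every control array, and the difference of 3.06 ± 0.09 on the log2 scale (SE, 8.33-fold, limma adjusted p = 1.4e-11) was the largest rise among named genes measured in both groups. Egr2, a zinc finger factor induced within the first hour by growth factors, was 74.8, 72.3 and 116 at 4 h, against 13.8, 15.4 and 19.5 in the control. Its 4 h replicate 3 was the highest, and 2 of the 3 control arrays lay below 16, so that the 5.34-fold difference (limma adjusted p = 3.34e-06) depends on values near background. Egr2 had averaged 330.4 ± 24.02 after 2 h of GDNF and was back to 18.9 ± 1.19 at 8 h (SD, n = 3 each).

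Hivep2, a zinc finger factor, was 263, 203 and 214 at 4 h, against 53.1, 67.6 and 38.5 in the control, a 4.36-fold difference (limma adjusted p = 7.92e-07). Tcf7l2, a nuclear partner of beta-catenin in the Wnt pathway, was 239, 276 and 224 at 4 h, against 68.9, 102 and 70.3 in the control, 3.1-fold higher (limma adjusted p = 6.98e-05). In both genes all 4 h arrays lay above all control arrays. Fosb, a subunit of the AP-1 transcription factor, was 636, 254 and 282 at 4 h, against 88.3, 52.3 and 161 in the control. The 4 h arrays lay above the control arrays, but the first 4 h array stood far above the other two and the control arrays spread widely. The 3.94-fold difference had a limma adjusted p of 0.0121, which was 0.0621 without replicate 1 of the 4 h group and 0.0556 without replicate 2 of the control.

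A pair of inhibitors that are themselves induced by SMAD signalling stood together near the top. Smad7, the inhibitory SMAD, was 132, 152 and 141 at 4 h, against 39.9, 37.2 and 32.3 in the control, 3.9-fold higher (limma adjusted p = 7.37e-07). Pmepa1, a membrane protein that limits SMAD activation, was 349, 378 and 379 at 4 h, against 123, 116 and 102 in the control, 3.26-fold higher (limma adjusted p = 1.15e-07). Both sets of arrays were tight and well apart. Inhba, which encodes the subunit of activin A, was 151, 276 and 294 at 4 h, against 73.4, 96.6 and 31.4 in the control. Its arrays did not overlap but spread more, and the limma adjusted p of the 3.81-fold difference was 0.00299. None of the 3 had differed between withdrawal and control at the threshold, with log2 differences of -0.31 for Smad7, 0.13 for Pmepa1 and 0.01 for Inhba.

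Of the genes for surface and cytoplasmic proteins, Plaur, the receptor of the protease urokinase, was 278, 398 and 375 at 4 h, against 79.3, 106 and 92.9 in the control, 3.75-fold higher (limma adjusted p = 0.000219). Adra2a, an adrenergic receptor, was 69.6, 75.2 and 83.02 at 4 h, against 25.999, 24.3 and 22.1 in the control, 3.14-fold higher. All 4 h arrays of both receptors lay above all control arrays. Iqsec3, an exchange factor for ARF GTPases, was 145, 119.6 and 137 at 4 h, against 38.4, 30.1 and 26.97 in the control, 4.24-fold higher. Cables1, an adaptor between cyclin-dependent kinases and tyrosine kinases, was 915, 939.8 and 904 at 4 h, against 317, 287 and 323 in the control, 2.98-fold higher (limma adjusted p = 4e-10). The 3 arrays of Cables1 within each group lay close together, and neither gene overlapped between groups. A further 5 genes were below 16 on every control array and at least 16 on every 4 h array, so that only a bound can be given against 16. Myh2, a skeletal muscle myosin, was at least 5.00-fold higher at 4 h, with 68.3, 105 and 71.4 at 4 h and 8.28, 8.78 and 8.16 measured in the control. S100a3, a calcium-binding protein, was at least 3.44-fold higher, Sphk1, the kinase that makes sphingosine 1-phosphate, at least 2.42-fold, and Fhl2, a LIM-domain cofactor, and Spaca6, a sperm membrane protein, each at least 2.13-fold.

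Of the 12 genes furthest above the control, all in the RefSeq promoter table, 5 held 1 or more of the motifs searched for and 7 (Iqsec3, Fosb, Smad7, Inhba, Pmepa1, Adra2a and Cables1) held none. The bases before the starts of 4 of the 5 are shown, and the other gene, Hivep2, held an EGR motif and is not shown. How many of all tested genes hold 1 or more of the motifs was not counted, so that the 5 of 12 describe these genes alone. The motifs are those of the AP-1, EGR, CREB or serum response factors. Genes of the AP-1 and EGR families are among those that rose, and whether their products act on these promoters was not tested. The sequences are from RefSeq on GRCr8 and run 5′ to 3′ over the 250 bases before the gene start, at chr5:151111855-151112104 (minus strand) for Sfn, chr1:89181113-89181362 (plus strand) for Plaur, chr20:21054442-21054691 (minus strand) for Egr2 and chr1:264791085-264791334 (plus strand) for Tcf7l2. Capitals mark the matches: TGACTCA, an AP-1 motif, at -168 in Sfn and at -83 in Plaur, the CArG box CCATATATGG at -83 and ACGTCA, the core of the cyclic AMP response element, at -67 in Egr2, and CGCCCCCGC, the EGR motif on the other strand, at -101 and ACGTCA at -62 in Tcf7l2.
Sfn: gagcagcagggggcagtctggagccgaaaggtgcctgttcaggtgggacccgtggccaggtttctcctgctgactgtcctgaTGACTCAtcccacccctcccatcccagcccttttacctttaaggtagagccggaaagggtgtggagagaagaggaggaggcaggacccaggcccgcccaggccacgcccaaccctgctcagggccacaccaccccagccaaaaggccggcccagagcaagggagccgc
Plaur: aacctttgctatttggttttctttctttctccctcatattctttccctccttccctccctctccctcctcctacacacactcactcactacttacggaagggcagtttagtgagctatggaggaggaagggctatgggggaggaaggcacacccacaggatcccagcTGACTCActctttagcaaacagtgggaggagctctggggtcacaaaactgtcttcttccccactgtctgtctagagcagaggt
Egr2: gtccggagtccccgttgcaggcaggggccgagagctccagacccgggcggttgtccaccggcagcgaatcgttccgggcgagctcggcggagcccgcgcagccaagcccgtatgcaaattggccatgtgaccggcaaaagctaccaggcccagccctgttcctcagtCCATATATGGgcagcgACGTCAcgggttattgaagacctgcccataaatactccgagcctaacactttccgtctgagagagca
Tcf7l2: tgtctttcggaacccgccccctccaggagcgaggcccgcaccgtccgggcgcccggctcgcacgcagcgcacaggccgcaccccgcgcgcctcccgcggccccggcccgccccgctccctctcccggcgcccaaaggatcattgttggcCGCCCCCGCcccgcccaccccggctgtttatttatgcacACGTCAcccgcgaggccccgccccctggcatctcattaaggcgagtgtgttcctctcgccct
The motifs searched on both strands were TGANTCA (AP-1), TGACGTCA (the cyclic AMP response element), its core ACGTCA, which also lies within every TGACGTCA, GCGNGGGCG (EGR) and the CArG box, which binds serum response factor. The shares are of genes in the RefSeq promoter table. A gene with several starts, such as Tarbp1, has several windows and so more chances to hold a motif. An AP-1 motif stood in 15% of the 40 genes called at least 2-fold higher at 4 h. It stood in 10.9% of the 55 called at least 2-fold lower. It stood in 4.46% of the 7669 tested named genes and in 6.99% of all 27457 genes in the table. The core ACGTCA was in 17.5% of the genes called at least 2-fold higher and in none of the 55 called lower. It was in 12.2% of the tested genes and in 7.68% of all. An EGR motif was in 10% of the higher and 9.09% of the lower ones, against 9.78% of the tested genes, and a CArG box in 5% and 1.82%, against 1.37%. A match describes the letters of the window and shows no binding.

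**Figure D1:**
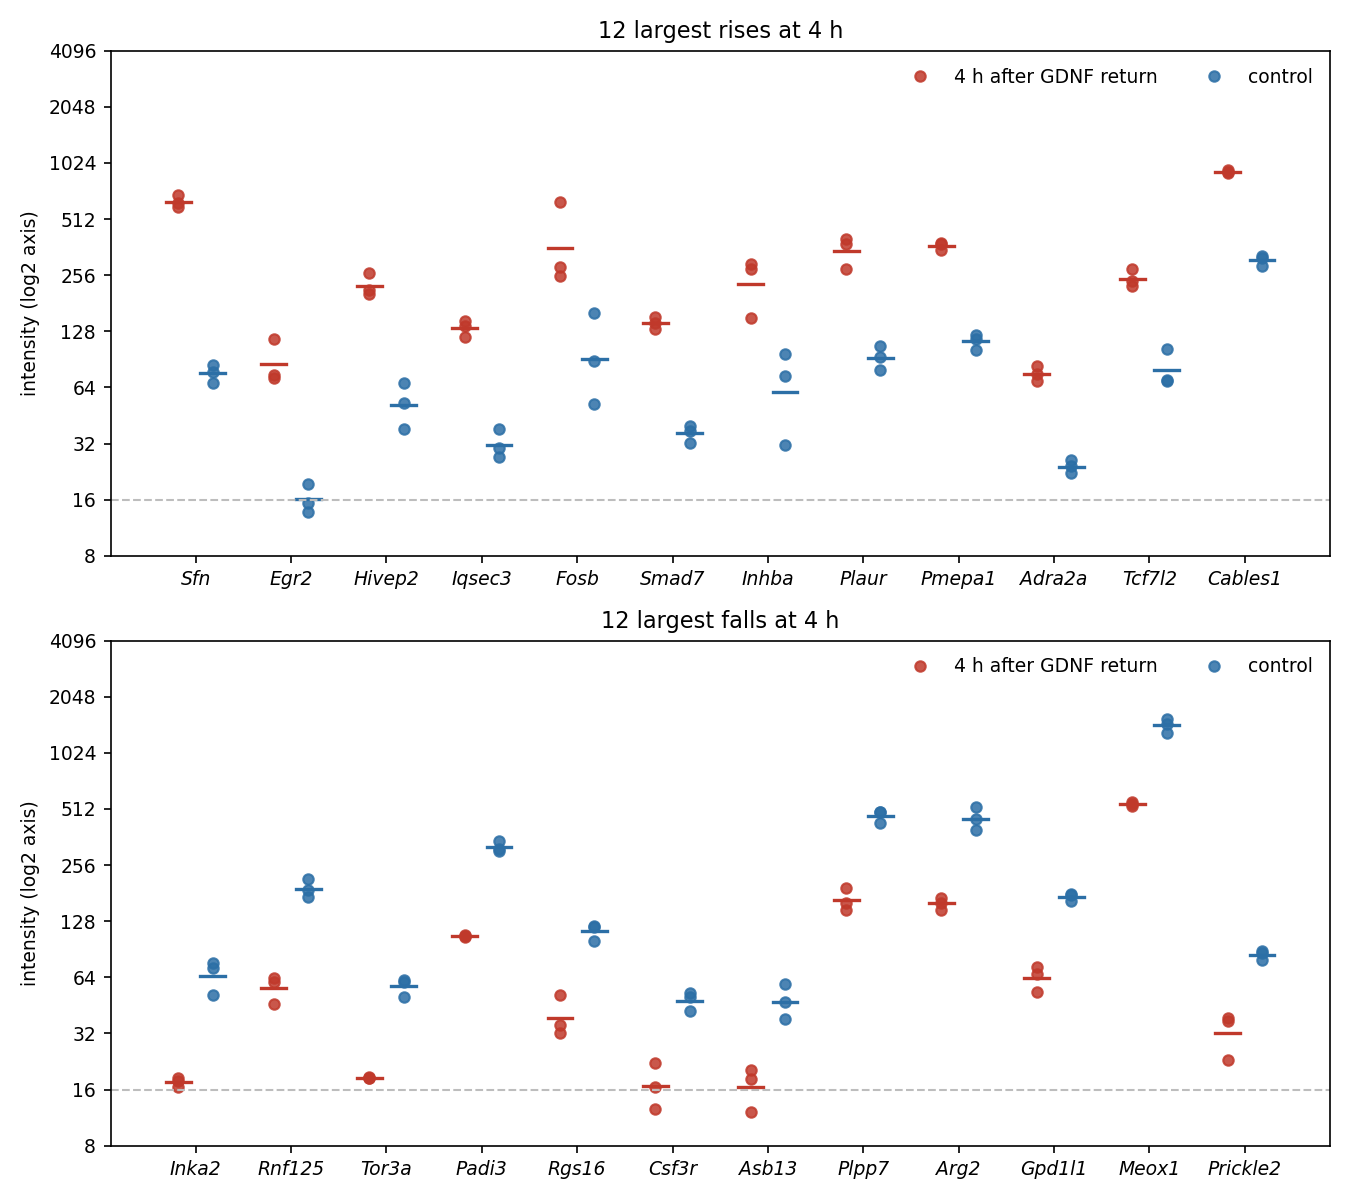
Intensity on a log2 axis of the 12 named genes that stood highest above the control (upper panel) and the 12 that stood furthest below it (lower panel) at 4 h, with a point for each array, red for 4 h and blue for control, bars at the geometric means of 3 arrays and a dashed line at 16, the level read as background. The points of the 2 groups do not overlap in any of these genes, which the choice of the genes required, and Sfn has the widest gap among the genes that were higher.

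The genes that stood furthest below the control included ubiquitin ligase components, enzymes and receptors. Rnf125, an E3 ubiquitin ligase, was 60.2, 45.9 and 63.5 at 4 h, against 215, 172 and 188 in the control, 3.41-fold lower (limma adjusted p = 3.96e-07). Plpp7, of the phospholipid phosphatase family, was 193, 147 and 160.02 at 4 h, against 495, 429 and 496 in the control, 2.85-fold lower (limma adjusted p = 4.72e-08). Asb13, a substrate receptor of ubiquitin ligases, was 18.1, 20.5 and 12.1 at 4 h, against 47.04, 38.1 and 59.2 in the control, 2.87-fold lower with 1 of the 4 h arrays below 16. These 3 genes had not been called after withdrawal, with log2 differences of 0.23, 0.14 and -0.19 between withdrawal and control, and all their 4 h arrays lay below all control arrays. Inka2, an inhibitor of the kinase PAK4, was 16.4, 17.8 and 18.6 at 4 h, against 51.2, 71.6 and 76.3 in the control, 3.72-fold lower with 4 h values just above background. Csf3r, the receptor of granulocyte colony-stimulating factor, was 22.1, 16.5 and 12.6 at 4 h, against 49.96, 42.2 and 52.5 in the control, 2.89-fold lower with 1 of the 4 h arrays below 16.

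Padi3, a peptidylarginine deiminase, was 108, 106 and 107 at 4 h, against 347, 304 and 312 in the control, 3-fold lower (limma adjusted p = 2.79e-09). Meox1, a homeobox factor, was 556, 547 and 533 at 4 h, against 1550.4, 1311 and 1458 in the control, 2.64-fold lower (limma adjusted p = 4.23e-09). In both the 4 h arrays lay within a few percent of each other, and far below the control arrays. Rgs16, which shortens G protein signals, was 35.6, 32.2 and 51.2 at 4 h, against 121, 99.7 and 119.8 in the control, 2.91-fold lower. Arg2, the mitochondrial arginase, was 171, 161 and 148 at 4 h, against 393, 452 and 524 in the control, 2.84-fold lower. Tor3a, a torsin ATPase, was 3.1-fold lower, Gpd1l1 2.72-fold and Prickle2, a planar polarity protein, 2.63-fold. A further 5 genes had fallen below 16 on every 4 h array: Flvcr2, a membrane transporter, was at least 4.38-fold lower and Dhh, the hedgehog ligand known from Sertoli cells, at least 4.02-fold. Ccsap, a centriole and spindle protein, was at least 2.37-fold lower, Cyp2c23, a cytochrome P450, at least 2.25-fold and Nr1h3, the oxysterol receptor LXR alpha, at least 1.91-fold. Dhh was 15.8, 15.98 and 15.8 at 4 h, against 62.8, 66.9 and 63.3 in the control. Over the 7 tested Sertoli cell markers the mean log2 intensity was 7.04 ± 0.06 at 4 h and 7.31 ± 0.05 in the control, and without Dhh it was 7.55 ± 0.07 at 4 h and 7.53 ± 0.05 in the control.

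Withdrawal showed on which side of the control each gene had been when GDNF came back. Withdrawal alone had raised 1809 probe sets (11.4%) and lowered 1533 (9.67%) relative to the control, 3342 (21.1%) in all. The comparisons of withdrawal and of 4 h share the 3 control arrays, so that an error in those arrays moves both the same way. A probe set was counted as an overshoot where both comparisons were called with opposite signs, and as an incomplete recovery where both were called with the same sign. Overshoot held in 358 probe sets (2.26%), of which 221 (1.39%) stood above and 137 (0.864%) below the control at 4 h. Incomplete recovery held in 970 (6.12%), of which 434 (2.74%) stood above and 536 (3.38%) below. A further 2014 (12.7%) had been called after withdrawal and were not at 4 h, 1238 (7.81%) of them higher and 776 (4.89%) lower after withdrawal. Another 2102 (13.3%) were called at 4 h and not after withdrawal, 1121 (7.07%) higher and 981 (6.19%) lower. Withdrawal had changed 2211 named genes (24.6%). In named genes the classes held 253 (2.81%) for overshoot, 623 (6.92%) for incomplete recovery, 1335 (14.8%) called after withdrawal alone and 1311 (14.6%) called at 4 h alone.

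**Figure D2:**
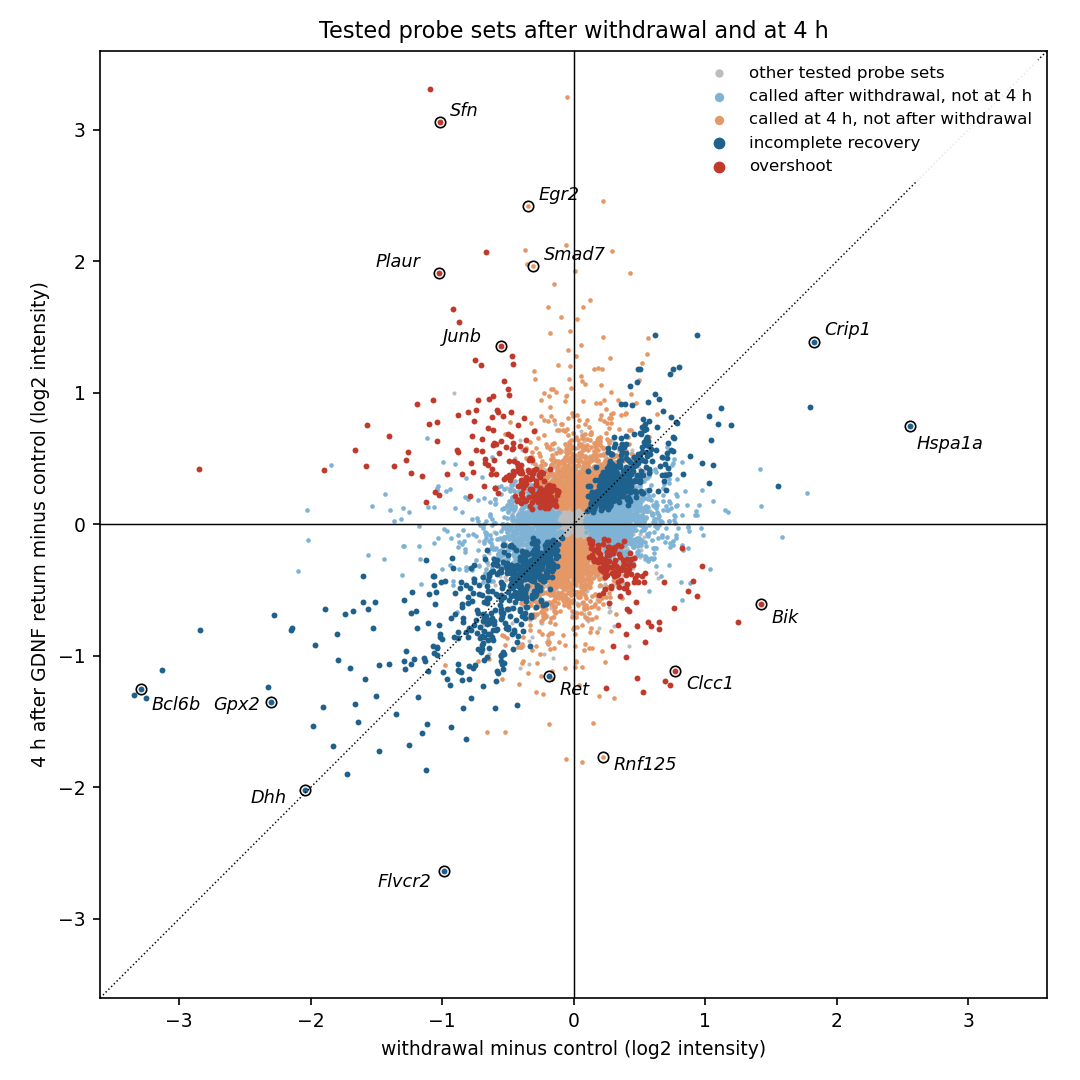
Log2 difference between 4 h of GDNF return and control (vertical) against that between withdrawal and control (horizontal) for the 15856 tested probe sets, coloured by class, with a dotted line where both differences are equal. Both axes share the control arrays; overshoot points lie in the upper left and lower right quadrants, with Sfn at 3.06 and -1.02, and incomplete recovery in the other two, with Bcl6b at -1.25 and -3.29.

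Of the probe sets that had moved most on withdrawal, those that had risen were nearer to the control at 4 h than those that had fallen. A gene with several probe sets can be counted more than once here. After withdrawal 21 probe sets were called at least 2-fold higher. Of these, 8 were no longer called at 4 h and 9 had moved toward the control without reaching it. Another 2 had not moved at the threshold and 2 had overshot. Of the 21, 1 was still called at least 2-fold higher. Their median difference from the control was 1.20 on the log2 scale after withdrawal, 0.78 at 2 h, 0.31 at 4 h and 0.20 at 8 h. After withdrawal 122 probe sets were called at least 2-fold lower. Of these, 29 were no longer called at 4 h, 39 had moved toward the control and 30 had not moved at the threshold. Another 2 were further away and 22 had overshot. Of the 122, 33 were still called at least 2-fold lower. Their median was -1.27 after withdrawal, -1.16 at 2 h, -0.58 at 4 h and -0.40 at 8 h. The difference in recovery between the 2 sets was not tested. Both sets were chosen on the difference between withdrawal and control arrays, and the same control arrays enter the medians at 2, 4 and 8 h.

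The overshoots above the control began with Sfn. It had averaged 76.5 ± 8.504 in the control, 37.6 ± 2.04 after withdrawal, 257 ± 1.88 at 2 h, 636 ± 46.8 at 4 h and 150.1 ± 5.74 at 8 h (SD, n = 3 each), and at 8 h it was still called above the control (log2 0.98, limma adjusted p = 4.2e-06). Plaur was lowered on withdrawal by 2.04-fold and Tcf7l2 by 1.89-fold before they passed the control. Tcf7l2 averaged 37.3 ± 6.51 at 2 h, no more than after withdrawal (43.2 ± 12.7), reached 247 ± 26.998 at 4 h and was 80.6 ± 9.27 at 8 h. Junb, a subunit of AP-1, was 625, 616 and 697 at 4 h, against 222, 253 and 284 in the control, 2.56-fold higher (limma adjusted p = 7.91e-07). Its level of 753 ± 108 at 2 h was above that at 4 h, and at 8 h it averaged 309.6 ± 9.35. Ets2, an ETS factor activated by ERK, was 673, 643 and 589 at 4 h, against 264, 226 and 296 in the control, 2.43-fold higher (limma adjusted p = 7.37e-07), with no overlap. Pnpla1, a patatin-like lipase, was 2.32-fold higher, Tarbp1, an RNA methyltransferase, 2.12-fold, and Cactin-ps2, named as a pseudogene whose probe set may also read its parent gene, 2.38-fold.

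Overshoots below the control were genes that withdrawal had raised and that then fell past the control. Mypn, a protein of the muscle Z-disc, was 191, 184 and 189 at 4 h, against 433, 446 and 456 in the control, 2.36-fold lower (limma adjusted p = 7.83e-10). Clcc1, a chloride channel of the endoplasmic reticulum, was 326, 292 and 328 at 4 h, against 662, 688 and 694 in the control, 2.16-fold lower (limma adjusted p = 5.78e-09). Their arrays did not overlap, although withdrawal had raised Clcc1 by 1.71-fold and Mypn by 1.18-fold. Synm, an intermediate filament protein, was 2.28-fold lower at 4 h, the transporter gene Slc35f2 2.24-fold, Mfsd6 2.01-fold, Cdca7l 1.9-fold and the scaffold gene Sash1 1.78-fold. Fam110b was 2.42-fold lower on its brightest probe set, and a second probe set, which was below 16 on average, gave a log2 difference of -0.09 (limma adjusted p = 0.669). Bik, a BH3-only protein that promotes apoptosis, was raised 2.68-fold by withdrawal, and was 147, 125 and 140.5 at 4 h, against 223, 217 and 189 in the control, 1.52-fold lower (limma adjusted p = 0.000408).

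Of the named genes in the promoter table, 121 overshot above the control and 92 below it. An AP-1 motif stood in 10.7% and 1.09% of them, against 4.46% of the tested genes. The core ACGTCA stood in 21.5% and 8.7% of them, against 12.2%, and the full TGACGTCA in 7.44% and 2.17%, against 3.48%. These shares describe the windows and were not tested.

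**Figure D3:**
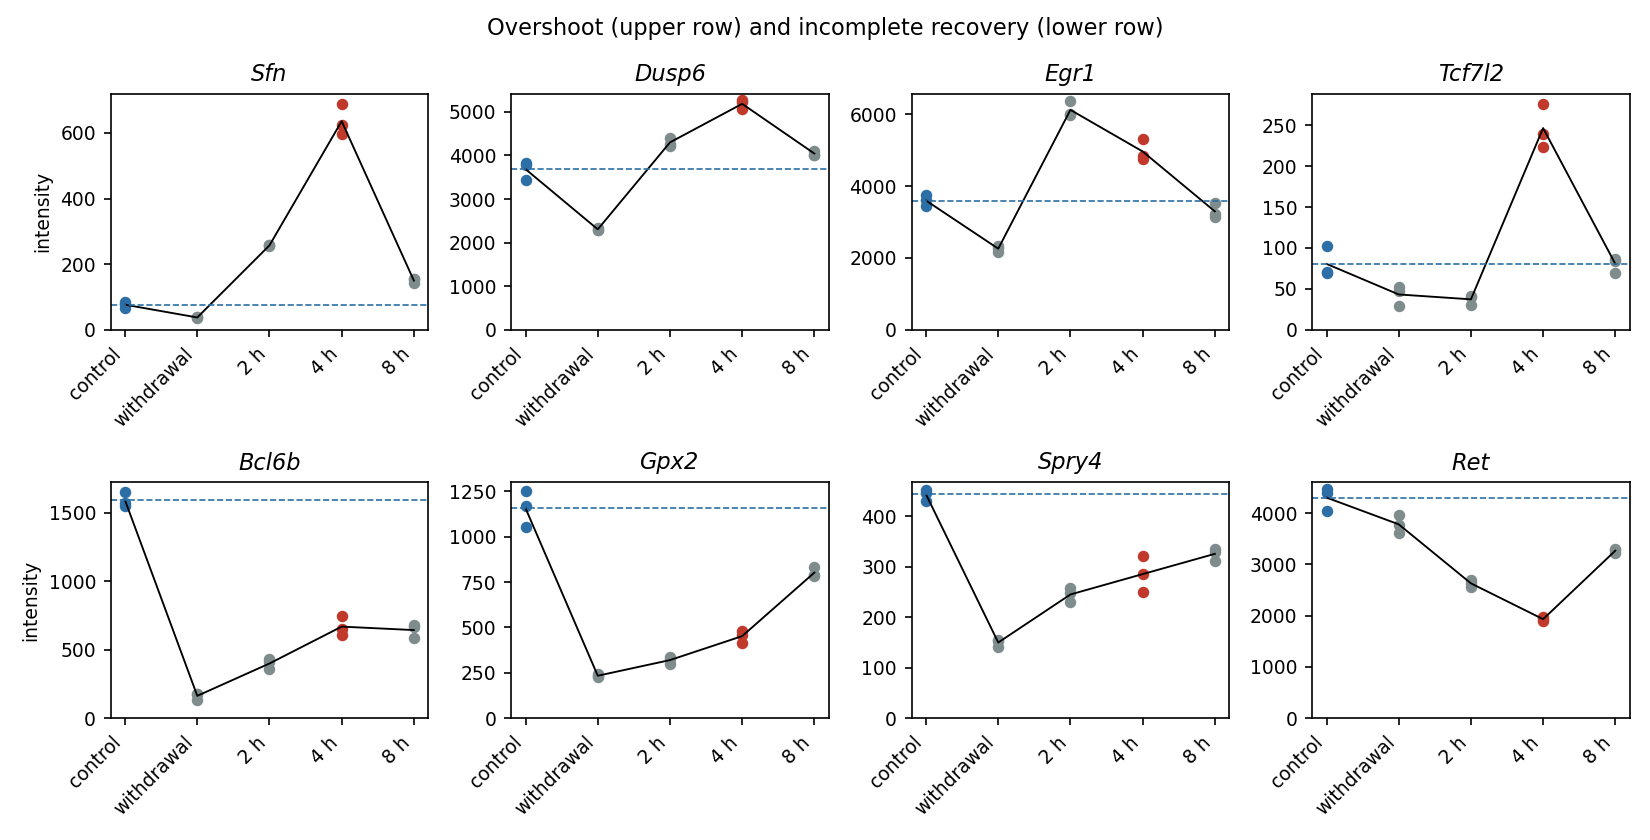
Intensity by array in the control, after 18 h of withdrawal and 2, 4 and 8 h after GDNF return for 4 genes that overshot (upper row) and 4 that had not recovered (lower row), with blue control points, red 4 h points, grey points for the other groups, lines through the group means and a dashed line at the control mean. Sfn and Tcf7l2 peak at 4 h, Egr1 peaks at 2 h, and Ret is lowest at 4 h.

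Incomplete recovery fell into 3 kinds by the direct comparison of 4 h with withdrawal, in which 4848 probe sets (30.6%) were called. Of the 970 probe sets 130 (0.820% of those tested) had moved toward the control, 728 (4.59%) were not called between withdrawal and 4 h, and 112 (0.706%) had moved further away. Of those not called 361 (2.28%) stood above and 367 (2.31%) below the control, and of those further away 30 (0.189%) stood above and 82 (0.517%) below. Among named genes 3180 (35.3%) were called between 4 h and withdrawal, and the 3 kinds held 93 (1.03%), 450 (5.00%) and 80 (0.889%). In the first kind the level at 4 h lay between withdrawal and control. More of its named genes were below the control (60, 0.667% of those tested) than above it (33, 0.367%). All named genes called at 4 h also leaned lower, with 12.9% lower and 11.4% higher.

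Bcl6b, the transcriptional repressor that GDNF keeps on in mouse stem cells, was 746, 607 and 653 at 4 h, against 1571, 1547 and 1647 in the control, 2.38-fold lower (limma adjusted p = 1.47e-06). It had averaged 164 ± 26.4 after withdrawal and 399.9 ± 36.2 at 2 h, and at 643 ± 52.7 it was no nearer to the control at 8 h. Its 3 other probe sets gave log2 differences of -1.11, -1.32 and -1.29 at 4 h. Gpx2, a glutathione peroxidase, was 481, 416 and 460.2 at 4 h, against 1051, 1167 and 1249.8 in the control, 2.55-fold lower (limma adjusted p = 8.7e-09). It had averaged 234 ± 6.64 after withdrawal and reached 802 ± 25.8 at 8 h. Reep1, which shapes the endoplasmic reticulum, was 2.57-fold lower at 4 h, the death receptor gene Tnfrsf25 2.26-fold, the homeobox gene Hoxc5 2.14-fold, the collagen receptor gene Ddr1 2.05-fold and the corepressor gene Hr 1.95-fold. Qprt, an enzyme of NAD synthesis, was 2.15-fold lower on its brightest probe set, while a dim second one gave -0.08 (limma adjusted p = 0.562).

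Genes still above the control but coming down included 2 small LIM-domain proteins. Crip1 was 136, 148 and 143 at 4 h, against 64.3, 54.6 and 45.7 in the control, 2.62-fold higher (limma adjusted p = 2.42e-06), after a mean of 194 ± 29.2 on withdrawal. Crip2 was 58.4, 45.7 and 56.05 at 4 h, against 26.4, 32.6 and 36.3 in the control, 1.69-fold higher (limma adjusted p = 0.00203). The arrays of both were apart. Hspa1a, the inducible chaperone HSP70, was 71.7, 68.1 and 68.8 at 4 h, against 44.99, 32.9 and 47.9 in the control, and had averaged 245 ± 33.03 after withdrawal, so that most of its rise was gone. Sulf2, which trims heparan sulfate, was 1.7-fold higher at 4 h and Cdkn1c, the CDK inhibitor p57, 1.38-fold. Gas6, a ligand of the TAM receptors, was 1.56-fold higher on its brightest probe set, and a second one gave a log2 difference of -0.13 (limma adjusted p = 0.201). The log2 differences of Ttc28 (0.38) and Tmem231 (0.38), a protein of the ciliary base, lost their calls in 5 of 17 and 2 of 18 settings. Without replicate 1 of control, withdrawal and 4 h together the limma adjusted p was 0.128 for Ttc28 and 0.0853 for Tmem231. It was 0.0585 for Ttc28 without replicate 3 of the 4 h group, and 0.0614 for Tmem231 without replicate 1 of the control.

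In the second kind the level at 4 h could not be told from that after withdrawal. Inka2 and Arg2, described above, were -1.72 and -1.64 log2 units from the control after withdrawal and -1.90 and -1.51 at 4 h. Lcp1, an actin bundler, was 26.8, 23.8 and 29.2 at 4 h, against 59.97, 54.9 and 86.4 in the control, 2.48-fold lower, and Carmil1, a regulator of actin capping, was 2.33-fold lower. Gpd1l1 was 72.4, 66.6 and 53.5 at 4 h, against 177, 179 and 163 in the control. Above the control stood Prss46, a serine protease, 1.98-fold, Ndrg2 1.94-fold, Itih3, a hyaluronan-binding protein, 1.81-fold, and the transporter gene Slc4a11 1.76-fold. Podxl2 was 1.77-fold higher (limma adjusted p = 0.0153), a call lost in 3 of 17 settings, with 0.0757 as the highest adjusted p. A difference between 4 h and withdrawal that missed the threshold does not show that the level stood still.

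The third kind, chosen for naming after the values were seen, moved away from the control when GDNF came back. Ret, the receptor that signals for GDNF, was 1974, 1892 and 1930.1 at 4 h, against 4475, 4033 and 4394 in the control, 2.22-fold lower (log2 -1.15 ± 0.04, limma adjusted p = 4e-10). Withdrawal alone had lowered it only to 3779 ± 172 (log2 -0.19, limma adjusted p = 0.00664). It then averaged 2629.8 ± 64.9 at 2 h, 1932 ± 40.8 at 4 h and 3266 ± 37.2 at 8 h, and the difference between 8 h and control was still -0.40 (limma adjusted p = 3.19e-05). Its other probe sets gave -1.09 (limma adjusted p = 1.15e-07) and -1.12 (1.53e-08) at 4 h, and no array of the 4 h group overlapped the control. After withdrawal those probe sets had given -0.06 (limma adjusted p = 0.597) and -0.16 (0.0806), neither called. That Ret counts as an incomplete recovery therefore rests on its brightest probe set. Tor3a, Padi3, Rgs16, Meox1 and Prickle2, described above, had the same course, with Meox1 at -0.84 after withdrawal and -1.40 at 4 h. Fam114a1 was 2.59-fold lower at 4 h, Cyp2d4, a cytochrome P450, 2.28-fold, and Epb41l4a 2.26-fold.

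Ddit4, Sall4 and Gadd45b were among the 17 named genes that moved away from the control above it. Ddit4, an inhibitor of mTORC1, was 1316, 1330.2 and 1398 at 4 h, against 798, 828 and 822 in the control, 1.65-fold higher (limma adjusted p = 4.37e-08). Sall4, a transcription factor of undifferentiated spermatogonia, was 984, 862 and 916 at 4 h, against 544, 439 and 487 in the control, 1.88-fold higher (limma adjusted p = 5.19e-06). Gadd45b, a stress sensor, was 288, 276 and 267 at 4 h, against 158, 137 and 147 in the control, 1.88-fold higher. Groups did not overlap in any of the 3, and their differences from the control after withdrawal had been 0.55, 0.39 and 0.36 log2 units. Tmcc3 was 2.71-fold higher at 4 h, the zinc finger gene Plagl1 2.07-fold, the LIM-domain gene Ajuba 1.58-fold, the transcriptional corepressor gene Spen 1.49-fold and the RNA-binding protein gene Msi2 1.46-fold. Second probe sets of Spen (log2 0.34, limma adjusted p = 0.0749) and Msi2 (0.36, 0.162) missed the threshold.

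Other genes that withdrawal had changed were no longer called against the control at 4 h. Arap3, which inactivates ARF GTPases, had been lowered 4.06-fold by withdrawal and was 744, 712 and 662 at 4 h, against 832, 638 and 851 in the control. The groups overlapped, and the 95% interval of the log2 difference was -0.33 to 0.09. Anxa3, a membrane-binding annexin, had a remaining difference of -0.35 (95% interval -0.67 to -0.03, limma adjusted p = 0.109) and Trib1, a pseudokinase, of 0.45 (-0.10 to 1.00). Tmc8, a membrane protein, had -0.27 (-0.64 to 0.11), Epas1, the hypoxia factor HIF-2 alpha, 0.23 (-0.07 to 0.53), and Perp, a junction protein induced by p53, 0.03 (-0.24 to 0.30). Of those that withdrawal had raised, Hey1, a target of Notch, had 0.11 (-0.17 to 0.39) left and Rac2, a small GTPase, 0.42 (0.11 to 0.74). Ddah1, which breaks down methylated arginine, had 0.18 (-0.23 to 0.59), the RAB5 exchange factor gene Rin2 -0.34 (-0.62 to -0.07) and the adaptor gene Apba2 -0.08 (-0.49 to 0.32), while Fam120c was back below 16. The intervals, which are not adjusted for the number of probe sets, leave out 0 in Anxa3, Rac2 and Rin2, and 1 control array of Rac2 was below 16. Intervals as wide as those of Trib1 and Rac2 leave room for differences as large as some that were called.

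Gene lists are described by how many members were called, beside the 24.3% of all named genes called at 4 h (11.4% higher, 12.9% lower) and the 24.6% called after withdrawal (13.8% higher, 10.8% lower). The lists and their members were chosen with earlier results of these data known. Their shares are therefore descriptions and were not tested against those of all named genes. Among the receptors and the proteins nearest to RET, 4 of 20 tested genes were higher at 4 h and 2 lower, with 30% called and a median difference of 0.04, while after withdrawal 1 had been higher and 6 lower. Gfra1 was below 16 on all 6 arrays and was not tested. Gfra3, the co-receptor of artemin, was 27.02, 33.3 and 32.4 at 4 h, against 13.7, 13.1 and 13.1 in the control (at least 1.92-fold higher, limma adjusted p = 0.000322), with every control array below 16. Dok5, an adaptor that binds RET, was 18.1, 21.1 and 17.5 at 4 h, against 9.45, 9.601 and 9.71 in the control (at least 1.18-fold higher), and its call was lost with values under 16 set to 16 (limma adjusted p = 0.0566). Pik3cd, a catalytic subunit of PI3K, was 1.7-fold lower at 4 h (limma adjusted p = 0.00261), with -0.35 on the log2 scale and 0.0334 on another probe set. The phosphatase gene Ptpn11 had a log2 difference of 0.11 (limma adjusted p = 0.117) and the adaptor gene Gab1 of 0.04 (0.602). Ret, already described, was the member with the smallest adjusted p.

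In the list of genes tied to GDNF in mouse spermatogonial stem cells, 2 of 11 tested genes were higher at 4 h and 1 lower, with 27.3% called, near the 24.3% of all named genes, and a median of 0.11, against 1 higher and 5 lower after withdrawal. The 3 called at 4 h were Egr2, Bcl6b and Pou3f1, a POU factor, which was 264, 339 and 269 at 4 h, against 184, 146 and 161 in the control, 1.77-fold higher (limma adjusted p = 0.000241). All 4 h arrays of Pou3f1 lay above all control arrays. Etv5, an ETS factor, was 829, 719 and 714 at 4 h, against 993, 633 and 672 in the control, a log2 difference of 0.00 (95% interval -0.27 to 0.28). Ccnd2, cyclin D2, was 816, 1015 and 998 at 4 h, against 707, 809.5 and 853 in the control, a difference of 0.25 (0.02 to 0.49). Both overlapped the control after differences of -0.55 and -0.97 on withdrawal. Etv4, also an ETS factor, had 0.11 (-0.06 to 0.28), Id4, an inhibitor of differentiation, 0.20 (-0.13 to 0.53), the chemokine receptor gene Cxcr4 -0.09 (-0.32 to 0.14), Mycn, of the MYC family, -0.01 (-0.14 to 0.12), and Fos 0.29 (-0.42 to 1.00). Etv1 had -0.99 (-1.77 to -0.21, limma adjusted p = 0.0666), and its interval, which is not adjusted for the number of probe sets, leaves out 0.

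Of 21 tested immediate early genes 10 (47.6%, against 11.4% of all named genes) were higher at 4 h and 1 (4.76%, against 12.9%) lower, with a median of 0.32, against a median of -0.00 over all named genes. After withdrawal none had been higher and 12 lower, and 6 of the 21 were overshoots. Egr1, the zinc finger factor that opens many growth factor responses, was 5299, 4753 and 4830.1 at 4 h, against 3739, 3439 and 3607 in the control, 1.38-fold higher (limma adjusted p = 2.25e-05). It had averaged 2257 ± 88.3 after withdrawal and 6118 ± 213 at 2 h. The exception was Arc, a capsid-like protein known from synapses, which was 45.97, 40.5 and 46.4 at 4 h, against 77.6, 74.5 and 88.9 in the control, 1.81-fold lower (limma adjusted p = 2.02e-05). The groups of both genes did not overlap. Jund, another subunit of AP-1, had a log2 difference of 0.17 (limma adjusted p = 0.0633).

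Inhibitors of ERK signalling were split, with 5 of 12 tested genes higher at 4 h, 3 lower, 66.7% called and a median of -0.00, against 1 higher and 5 lower after withdrawal. Dusp6, the phosphatase that removes phosphate from ERK, was 5273, 5225 and 5057 at 4 h, against 3828, 3445 and 3783 in the control, 1.41-fold higher (limma adjusted p = 4.66e-07), an overshoot after a mean of 2305 ± 17.7 on withdrawal. Spry4, a Sprouty inhibitor of RAS activation, was 321, 249.6 and 286 at 4 h, against 431, 452 and 446 in the control, 1.56-fold lower (limma adjusted p = 6.89e-05), after 150.1 ± 8.16 on withdrawal. The 2 inhibitors therefore stood on opposite sides of the control at 4 h, each without overlap. Dusp5, the nuclear ERK phosphatase, was 238, 223 and 257 at 4 h, against 174, 110.1 and 139 in the control, 1.72-fold higher. Errfi1, an inhibitor of the EGF receptor, was 1649, 1674 and 1719 at 4 h, against 1081, 1271 and 1137 in the control, 1.45-fold higher (limma adjusted p = 1.39e-05). Rasa1, a RAS GTPase-activating protein, had a log2 difference of -0.05 and Lrig1, an inhibitor of receptor tyrosine kinases, of 0.05, neither called.

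**Figure D4:**
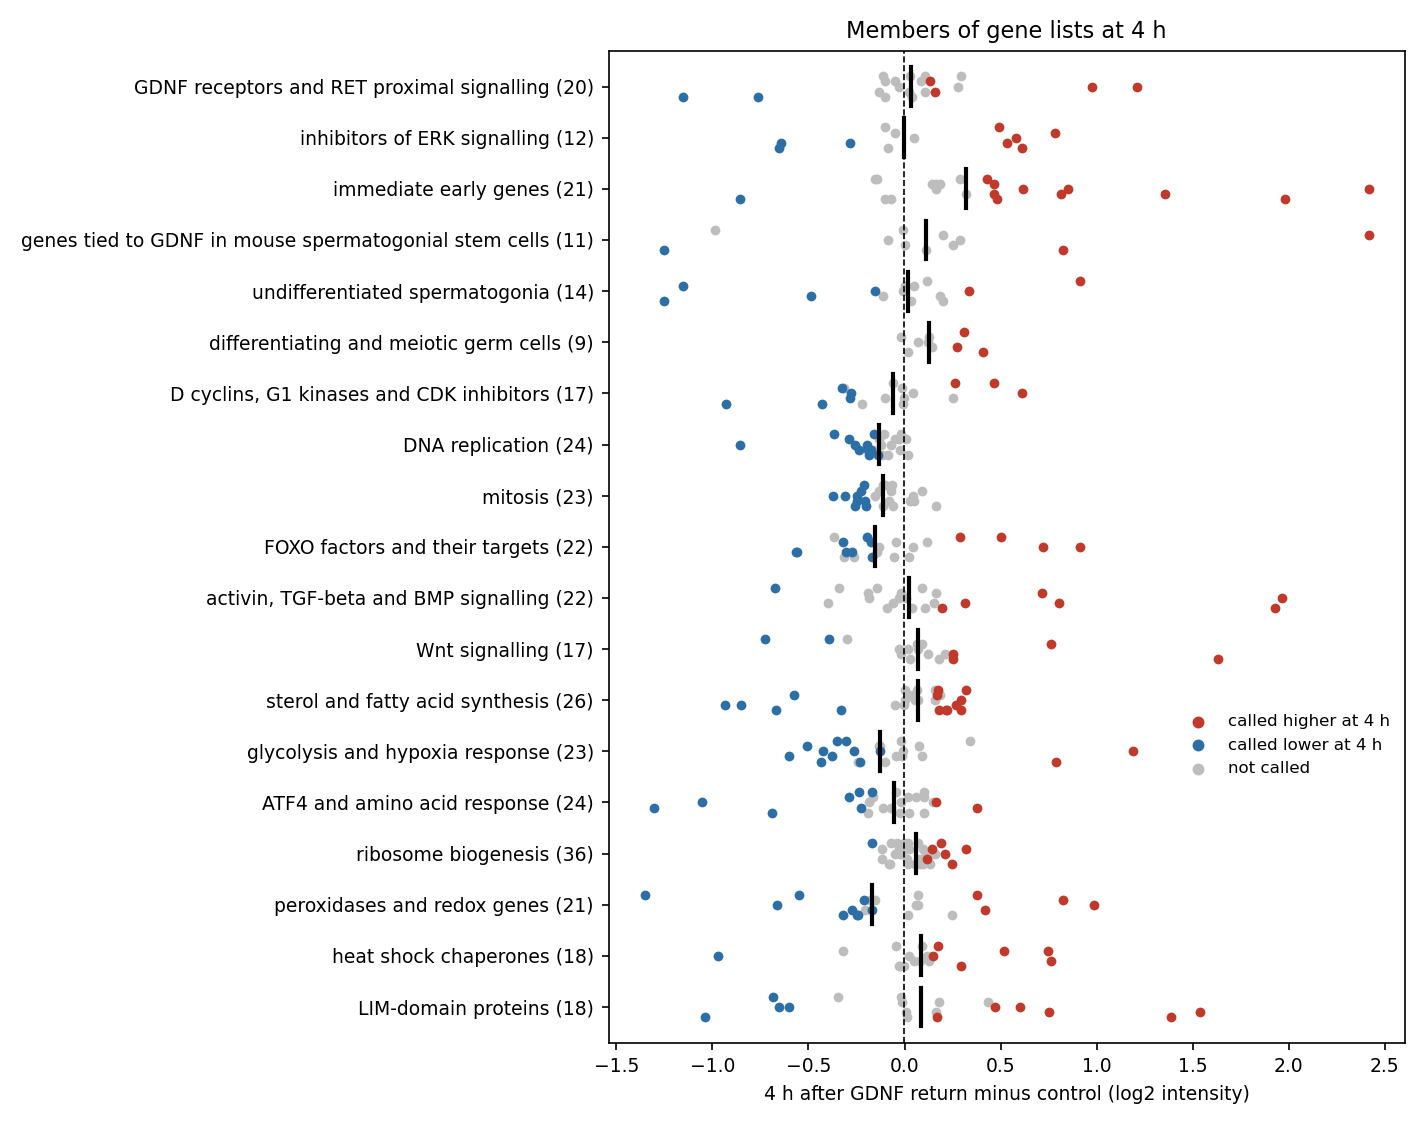
Log2 difference between 4 h of GDNF return and control for the tested members of 19 gene lists. Red points are members called higher, blue points members called lower and grey points members not called. Black bars stand at the list medians and the dashed line at the median of all named genes (-0.00). Numbers of tested members stand in brackets. Immediate early genes have the highest median of these lists (0.32), and peroxidases and redox genes the lowest (-0.17).

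Markers of undifferentiated spermatogonia showed no single direction: 2 of 14 were higher at 4 h and 4 lower, with 42.9% called and a median of 0.02, against 4 higher and 7 lower after withdrawal. Beside Ret, Bcl6b and Sall4, Itga6, the laminin receptor chain used to enrich these cells, was 7545, 8752 and 7445 at 4 h, against 11656, 10412 and 11093 in the control, 1.4-fold lower (limma adjusted p = 0.000114). Its 2 other probe sets gave larger falls, of -0.88 and -0.78 on the log2 scale. Uchl1 had a log2 difference of -0.01 and the SOX factor gene Sox3 of 0.04, neither called. Of 9 genes of differentiating and meiotic germ cells 3 were higher at 4 h and none lower, with 33.3% called and a median of 0.13, against 6 higher and none lower after withdrawal. All 3 encode parts of the synaptonemal complex, with log2 differences of 0.41 for Sycp2, 0.27 for Sycp3 and 0.31 for Sycp1, and the call of Sycp1 was lost in 3 of 18 settings (highest limma adjusted p 0.069). Over late germ cell markers the mean log2 intensity was 8.64 ± 0.08 at 4 h and 8.38 ± 0.03 in the control, without overlap, from 3 tested genes of which Spa17 (0.28) and Odf2 (0.30) were called. Both calls were lost in several settings, the protamine and transition protein markers were below 16, and the part of such cells in the other results was not tested.

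In the lists of DNA replication and mitosis the genes that were called were all lower at 4 h. Of 24 replication genes none was higher and 11 (45.8%, against 12.9% of all named genes) were lower, with a median of -0.13, and of 23 mitosis genes none was higher and 9 (39.1%) were lower, with a median of -0.11. After withdrawal 8 replication genes had been lower and none higher, whereas 6 mitosis genes had been higher and 2 lower. Tk1, thymidine kinase, was 172, 198 and 179 at 4 h, against 319, 314 and 362 in the control, 1.81-fold lower (limma adjusted p = 2.42e-06). Its arrays were apart, but its other probe sets gave log2 differences of -0.55 and 0.02, the second not called. The helicase subunit gene Mcm3 had -0.29, and the clamp loader genes Rfc2 and Rfc3 -0.24 and -0.19, while Pcna, the clamp itself, had -0.05 and Mcm6 -0.16, neither called. In mitosis, cyclin B2 (Ccnb2) had -0.25, the spindle protein gene Nusap1 -0.37, the kinesin gene Kif20a -0.26 and cyclin B1 (Ccnb1) -0.21, all called, and Mki67 had 0.05 and cyclin A2 (Ccna2) -0.06, neither called. A second probe set of Ccnb1 gave -0.10 and was not called.

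Among D cyclins, G1 kinases and CDK inhibitors, 3 of 17 were higher and 5 lower at 4 h, with 47.1% called and a median of -0.06, against 4 higher and 4 lower after withdrawal. Cdkn1a, the CDK inhibitor p21, was 391, 346 and 344 at 4 h, against 243, 247 and 219 in the control, 1.53-fold higher (limma adjusted p = 6.4e-05). A dim second probe set gave 0.12 on the log2 scale, not called. Cdk4, the G1 kinase, had -0.28 and Rb1, the retinoblastoma protein, -0.43, both called, and cyclin D1 (Ccnd1) had -0.01 and Rbl1 -0.00, neither called. In the BCL2 family 2 of 9 were higher and 2 lower, with 44.4% called and a median of -0.02, against 3 higher and 3 lower after withdrawal. Besides Bik, the BH3-only gene Bad was 1.37-fold lower, the BH3-only gene Bbc3 1.35-fold higher and the survival gene Mcl1 1.14-fold higher. The call of Mcl1 was lost without replicate 2 of the 4 h group (limma adjusted p = 0.0505). Bid had a log2 difference of -0.08 and Bcl2l2 of -0.02, neither called.

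FOXO factors and their targets, which AKT holds down, had 4 of 22 genes higher and 8 lower at 4 h, with 54.5% called and a median of -0.16, against 11 higher and 1 lower after withdrawal. Beside Ddit4 and Gadd45b above the control, Txnip, the inhibitor of thioredoxin, was 1367, 1400.2 and 1499.8 at 4 h, against 1749, 1772 and 1747 in the control, 1.24-fold lower (limma adjusted p = 0.00025), an overshoot after a log2 difference of 0.23 on withdrawal. Cited2, a transcriptional coregulator, was 1.47-fold lower. Foxo1 itself had 0.12 and Rictor, of mTORC2, 0.04, neither called.

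Members of the activin, TGF-beta and BMP pathways were higher in 6 of 22 cases and lower in 1 at 4 h, with 31.8% called and a median of 0.02, against 1 higher and 6 lower after withdrawal. Skil, a repressor of SMAD targets that SMADs also induce, was 5718, 6365 and 6128 at 4 h, against 3294, 3649 and 3469 in the control, 1.75-fold higher (limma adjusted p = 1.06e-07). Id1, a target of BMP signalling, was 557, 639 and 613 at 4 h, against 366, 383 and 353 in the control, 1.64-fold higher, and Id3, of the same family, was 521, 500.1 and 580.3 at 4 h, against 821, 851 and 882 in the control, 1.6-fold lower. The 2 ID genes had both been lower after withdrawal (-0.61 and -1.24), and by 4 h they were on opposite sides of the control. Smad4 had 0.04 and Smad5 -0.06, neither called.

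In Notch signalling 2 of 8 genes were higher and 1 lower, with 37.5% called and a median of -0.01, against 2 higher and 3 lower after withdrawal. Hes1, a repressor that Notch induces, was 1512, 1674 and 1782 at 4 h, against 701, 823 and 779.9 in the control, 2.16-fold higher (limma adjusted p = 2.99e-08), without overlap and with no call after withdrawal (-0.04). The ligand genes Jag1 (-0.29) and Jag2 (0.26) were called, but lost the call in 6 and 10 of 18 settings, and Hes6 (-0.02) and Nrarp (0.00) were not. In Wnt signalling 4 of 17 were higher and 2 lower, with 35.3% called and a median of 0.07, against 1 higher and 3 lower after withdrawal. Lef1, a partner of beta-catenin, was 558, 429.8 and 416 at 4 h, against 259, 291 and 271 in the control, 1.7-fold higher, and Tcf7l1, its family member, 1.65-fold lower. Apc, of the beta-catenin destruction complex, had 0.25 and was called, while Ctnnb1, beta-catenin, had 0.02 and Tcf7 0.06, neither called. Of 12 HOX genes and partners 2 were higher and 2 lower, with 33.3% called and a median of -0.14, against 1 higher and 3 lower after withdrawal. Hoxc4 was 1119, 1073 and 1085 at 4 h, against 1699, 1649 and 1763 in the control, 1.56-fold lower after 459 ± 19.8 on withdrawal, so that it and Hoxc5 were both still below the control. The partner genes Pknox1 (0.62) and Pbx3 (0.42) were called higher, and Pbx2 (-0.08) and Hoxc9 (-0.12) were not called. Dimmer probe sets of Pknox1 (0.27, limma adjusted p = 0.115) and Hoxc4 (-0.20, 0.171) missed the threshold.

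Metabolic genes moved by list in different ways. Of 23 genes of glycolysis and the hypoxia response 2 were higher and 10 lower at 4 h, with 52.2% called and a median of -0.13, against 4 higher and 7 lower after withdrawal. The glycolytic enzyme gene Tpi1 was 269, 284 and 286 at 4 h, against 409, 424 and 442 in the control, 1.52-fold lower (limma adjusted p = 2.74e-06), and Pgk1 was 1.42-fold lower. Pdk1, which keeps pyruvate out of mitochondria, was 1.34-fold lower, with a larger log2 difference of -0.91 on a dimmer probe set (limma adjusted p = 0.000124). Against that direction, Vegfa, the angiogenic factor, was 416, 526 and 525 at 4 h, against 208, 223 and 208 in the control, 2.28-fold higher (limma adjusted p = 9.68e-06), with no overlap. Gpi had -0.04 and P4ha1 0.09, neither called. Of 26 genes of sterol and fatty acid synthesis 9 were higher and 5 lower, with 53.8% called and a median of 0.07, against 2 higher and 9 lower after withdrawal, and 5 were overshoots. The fatty acid elongase gene Elovl6 was 1.81-fold lower at 4 h (limma adjusted p = 4.66e-07) and Ebp, of cholesterol synthesis, 1.59-fold lower, while Idi1, of isoprenoid synthesis, was 1.2-fold higher and Acaca, acetyl-CoA carboxylase, 1.16-fold higher. Second probe sets of Idi1 (log2 0.12) and Acaca (0.20) were not called, nor were Acly (0.00) and the brightest probe set of Fasn (0.05), while a dimmer one of Fasn gave 0.35 (limma adjusted p = 0.0225).

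Of 24 genes of the ATF4 and amino acid response 2 were higher and 7 lower, with 37.5% called and a median of -0.06, against 3 higher and 1 lower after withdrawal. Chac1, which degrades glutathione, was 20.3, 12.9 and 18.995 at 4 h, against 40.97, 39.1 and 46.8 in the control, 2.47-fold lower with 1 of the 4 h arrays below 16 (limma adjusted p = 0.000105). Psat1, of serine synthesis, had -0.24, the translation repressor gene Eif4ebp1 -0.29 and Aldh18a1, of proline synthesis, -0.23, all called, and Atf4 itself had 0.10 and Mars1 0.10, neither called. Of 36 genes of ribosome biogenesis 6 were higher and 1 lower, with 19.4% called, below the 24.3% of all named genes, and a median of 0.06, against 2 higher and 3 lower after withdrawal. The nucleolar genes Nop58 (0.25), Dkc1 (0.32), Ltv1 (0.14) and Ubtf (0.21) were called, each losing the call in 3 to 8 of 18 settings, and Ncl (0.08) and Fbl (0.02) were not. The other probe sets of Ubtf gave 1.19 (limma adjusted p = 3.29e-05), 0.25 (0.0388) and 0.07 (0.843).

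Peroxidases and other redox genes were lower in 9 of 21 cases and higher in 4, with 61.9% called and a median of -0.17, against none higher and 9 lower after withdrawal. Opposite to Gpx2, Hmox1, heme oxygenase, was 914, 901 and 978 at 4 h, against 532, 516 and 528 in the control, 1.77-fold higher (limma adjusted p = 4.3e-08). Srxn1, which repairs peroxiredoxins, was 699, 630.5 and 713 at 4 h, against 331, 376 and 325 in the control, 1.98-fold higher (limma adjusted p = 3.96e-07). Both had been below the control after withdrawal (-0.54 and -0.49) and overshot without overlap, as did Gclc, of glutathione synthesis, at 1.34-fold. Sod1 (0.02) and Txn1 (-0.15) were not called. Of 18 heat shock chaperones 6 were higher and 1 lower, with 38.9% called and a median of 0.09, against 5 higher and 1 lower after withdrawal. Hspb1, a small chaperone, was 822, 678 and 889 at 4 h, against 1559, 1409 and 1691 in the control, 1.96-fold lower (limma adjusted p = 1.05e-06), while its partner Bag3 was 1.7-fold higher and the co-chaperone genes Dnajb1 and Dnaja1 1.23-fold and 1.13-fold higher. Hsp90ab1 (0.02) and Hspe1 (-0.00) were not called, nor was a second probe set of Dnajb1 (0.13, limma adjusted p = 0.0875).

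Of 18 LIM-domain proteins 6 were higher and 4 lower, with 55.6% called and a median of 0.09, against 3 higher and 7 lower after withdrawal. Limk2, the kinase that inactivates cofilin, was 102, 89.9 and 98.02 at 4 h, against 197, 189 and 208 in the control, 2.05-fold lower (limma adjusted p = 1.52e-07). Zyx, zyxin of focal adhesions, was 791, 706 and 747 at 4 h, against 503, 489.9 and 486 in the control, 1.52-fold higher after a difference of -0.62 on withdrawal, an overshoot. Fhl3 was 1.39-fold higher, and Lims1 (0.01) and Pdlim7 (0.01) were not called.

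Genes of mesenchymal cells, which can be present in germ cell cultures, were 1 higher and 2 lower of 13 tested, with 23.1% called and a median of -0.27. Their mean log2 intensity was 7.61, 7.98 and 8.04 at 4 h, against 8.00, 8.32 and 7.97 in the control, with overlap (exact permutation p = 0.5, 0.545 after adjustment over 12 array measures). Pdgfra, a growth factor receptor of such cells, was 261, 408 and 429 at 4 h, against 729, 1282 and 710.5 in the control, 2.44-fold lower (limma adjusted p = 0.00236). The fibrillin gene Fbn1 was 1.38-fold lower and Twist1 1.4-fold higher, the second lost in 5 of 18 settings, and Col1a1 (-0.05) and Col5a2 (0.16) were not called. The chemokine gene Cxcl12, also made by stromal cells, was 16.1, 37.4 and 45.8 at 4 h, against 60.5, 103 and 50.8 in the control (limma adjusted p = 0.0296), and its call was lost without replicate 1 of the 4 h group (0.139) and without replicate 2 of the control (0.125). Beside the other genes called at 4 h and not after withdrawal, the cell proliferation gene Pimreg was 2.19-fold lower and Sh3yl1 2.22-fold lower.

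RNA quality was followed through the probe sets for the ends of control transcripts. The difference between the 3′ and 5′ probe sets was -0.14 ± 0.03 log2 units at 4 h and -0.20 ± 0.01 in the control for GAPDH, and 2.21 ± 0.06 at 4 h and 2.50 ± 0.05 in the control for hexokinase, without overlap in either. For beta-actin it was 2.13 ± 0.11 at 4 h and 1.99 ± 0.09 in the control, with overlap. The 2 differences without overlap ran in opposite directions, each with an exact permutation p of 0.1, the smallest possible, and their part in the counts was not tested.

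By 8 h fewer probe sets differed from the control than at 4 h: 766 (4.83%) were higher and 1187 (7.49%) lower, 1953 (12.3%) in all, and the direct comparison of 8 h with 4 h called 1532 (9.66%), 565 (3.56%) higher and 967 (6.10%) lower at 8 h. At 2 h 3591 (22.6%) had been called. The named genes show how unevenly this went. Sfn fell by 2.08 on the log2 scale between 4 h and 8 h (limma adjusted p = 1.99e-09), Dusp6 averaged 4044 ± 50.03 at 8 h (limma adjusted p against the control 0.0316), and Egr1 averaged 3295 ± 203 (0.141). Bcl6b and Spry4, at -1.31 and -0.45 on the log2 scale, were still called below the control at 8 h (limma adjusted p = 2.46e-06 and 0.00269).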

How the data were processed

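Probe set intensities on a linear scale were taken as the authors deposited them, 1 column for each of 15 arrays. That the scale is linear follows from the range of the values. GCRMA and Partek 6.3 are named per the submitters' processing notes, and what each did, and how it was set, is not given in the sources used here. Intensities were taken to log2 without further normalization. A probe set was tested where it reached log2 4 (an intensity of 16) on 3 arrays or more. The 5 group means were fitted to all 15 arrays together (limma 3.58.1, R 4.3.3, lmFit and trended eBayes). Two-sided p-values were adjusted within each comparison (Benjamini-Hochberg) and called under 0.05. SD is over 3 arrays on the intensity scale, SE is limma's on the log2 scale, and intervals are 95% and not adjusted. A test of the fit on simulated data, with the probe set means and residual SDs of these arrays, was run after the main fit.

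Of the probe sets 20832 had 1 symbol in the platform annotation, 436 several and 9831 none, and 20764 of those with 1 matched RefSeq names of GRCr8. A gene is its brightest tested probe set of 1 symbol. Named genes were the 12 largest changes each way without overlap, up to 5 each way with 1 group below 16, the 8 largest overshoots, the largest incomplete recoveries (8 moving toward the control and 5 not called), 6 that had returned, 8 called at 4 h alone, the genes tied to GDNF, and up to 4 called and 2 other members of each list. The genes that moved away from the control were added after their values were seen. The members and lists were chosen with earlier results of these data known. Exact permutation tests of array measures used scipy 1.17.1 (Python 3.11.15). Alternatives were other filters, a floor, other scalings, array weights, no trend, fewer groups, the replicate block, a mesenchymal covariate and arrays left out.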

Additional observations from a re-analysis of the deposited data

Results flagged for a closer look

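Idi1, an enzyme of isoprenoid synthesis, was called on opposite sides of the control at different times. It was 4104, 3607 and 3726 at 4 h, against 3054, 3247 and 3194 in the control (log2 0.27, limma adjusted p = 0.000977), and averaged 2791 ± 79.1 at 8 h (log2 -0.18, limma adjusted p = 0.0206). The direct difference between 8 h and 4 h was -0.45 on the log2 scale (limma adjusted p = 2.62e-05). A second probe set gave 0.12 at 4 h and was not called.

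A control probe set outside the tested ones also differed. The array's control named ratb1 averaged 174 at 4 h, with 155, 202 and 167 on the 3 arrays, against 126, 142 and 145 in the control. The groups did not overlap, and an exact permutation test gave p = 0.1, the smallest that 3 against 3 arrays allow (0.171 after adjustment over 12 array measures). It averaged 292 at 8 h. Its sequence is not a gene of the comparison, and what it shows was not tested.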

How the results depend on the processing

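Of 258 named genes 223 had a value under the stricter filter and 235 without multi-target probe sets, and all had one in the other 16 of 18 alternative settings. No called gene changed direction where it had a value, and no other gene became called the opposite way. Of the 175 called at 4 h against control 137 had a value in every setting and 114 of these kept the call throughout, with 0 to 24 calls lost per setting. Fitting only the 2 groups compared called 1014 probe sets higher and 1011 lower. Fitting only control, withdrawal and 4 h gave 86 overshoots below the control, 264 incomplete recoveries above it and 71 that had moved away. With no filter there were 283 incomplete recoveries above the control and 72 that had moved away. Without replicate 1 of control, withdrawal and 4 h together, 1162 probe sets were higher, 146 overshot above and 77 below the control, 222 incomplete recoveries stood above it, 70 had moved toward it and 463 were not called from withdrawal; the cause was not tested beyond the smaller number of arrays.

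Leaving out 1 array at a time gave 1260 to 1602 probe sets higher and 1227 to 1468 lower, 154 to 211 overshoots above and 82 to 143 below the control, 292 to 455 incomplete recoveries above and 425 to 504 below, 776 to 1300 called higher and 720 to 1150 called lower at 4 h alone, 83 to 123 moving toward, 547 to 758 not called from withdrawal, 68 to 110 moving away, and 1428 to 2318 called after withdrawal alone. Of these, the overshoots below the control were 89 without control replicate 1 and 82 without control replicate 3, those moving toward were 83 without 4 h replicate 1 and 83 without 4 h replicate 3, and those moving away were 74 without withdrawal replicate 1 and 68 without withdrawal replicate 2.

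Median centring called 2072 higher and 1503 lower, 58.0% of calls higher, against 51.8% as reported and 50.5% after quantile normalization, and no scaling moved the median of all probe sets by more than 0.03. The groups share replicate numbers in the labels, and same-numbered control and 4 h arrays had deviations correlated by 0.24, 0.29 and 0.08. These values are low but all positive, and they do not settle whether the numbers pair the samples. With the replicate block 1856 probe sets were higher and 1739 lower, with 226 overshoots above and 155 below the control. With values under 16 set to 16, log2 differences shrank by over 1.5 times in Myh2 (2.32), S100a3 (1.78), Sphk1 (1.27), Spaca6 (1.09), Nr1h3 (-0.93), Hbegf (0.50), Dok5 (0.24) and Kdr (-0.44). Low signal limits these genes, and 3 arrays a group limit the rest.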

Other observations

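Of all named genes 24.3% were called between 4 h of GDNF return and control, and further lists are described beside that share. Of 16 cytokine receptors and JAK-STAT genes 2 were higher and 6 lower at 4 h, with 50% called and a median of -0.10 on the log2 scale, against 2 higher and 3 lower after withdrawal. Csf3r led them, Il10rb, a chain of the interleukin 10 receptor, was 24.2, 28.8 and 24.2 at 4 h, against 33.8, 54.03 and 44.6 in the control, 1.69-fold lower (limma adjusted p = 0.00206), and the interferon receptor genes Ifngr1 (-0.28) and Ifnar1 (-0.23) were called in some settings and not in others. The other probe sets of Ifnar1 gave -0.56 and -0.42, both called, and -0.06 and -0.06, not called. Jak1 (0.10) and Stat3 (0.04) were not called. Of 12 genes of MHC class I and antigen processing 1 was higher (Tap1, 0.32) and 2 lower (Psme1, -0.14, and Irf1, -0.17), with 25% called and a median of -0.04, against 2 higher and 4 lower after withdrawal, and B2m (-0.02) and Psme2 (-0.06) were not called. The share called was near that of all named genes, and the 3 calls were lost in 6 to 9 of 18 settings.

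Of 12 S100 proteins and annexins 2 were higher and 2 lower, with 33.3% called and a median of -0.28, against none higher and 5 lower after withdrawal. S100a3 was 56.9, 61.3 and 47.8 at 4 h, against 5.5999, 5.304 and 5.77 in the control, Anxa5 had a log2 difference of 0.35, Anxa11 of -0.27 and Anxa7 of -0.16, while S100a6 (-0.33) and S100a4 (-0.61) were not called. Of 10 genes of epithelial junctions and keratins 2 were higher and 2 lower, with 40% called and a median of -0.07, against 1 higher and 3 lower after withdrawal. Besides Sfn, the tight junction gene Ocln was 1.33-fold lower (limma adjusted p = 0.000156), and the calls of the adhesion gene Epcam (-0.16) and the claudin gene Cldn4 (0.22) were lost in 6 and 11 of 18 settings. Tjp1 on its brightest probe set (-0.08) and Cdh1 (-0.11) were not called, and a dimmer probe set of Tjp1 was lower (-0.64, limma adjusted p = 0.0146).

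Gli1, the transcription factor that hedgehog signals induce, was 49.03, 31.3 and 45.4 at 4 h, against 11.995, 19.4 and 23.5 in the control, 2.34-fold higher with 1 of the control arrays below 16 (limma adjusted p = 0.000451). Dhh, a hedgehog ligand, was below 16 on the 4 h arrays. It and Dhh were the 2 called of 4 tested hedgehog genes, with a median of 0.06, against none higher and 1 lower after withdrawal, and Gli2 (0.21) and Smo (-0.09) were not called. Hbegf, an EGF family ligand, was 16.1, 20.9 and 34.7 at 4 h, against 5.13, 7.11 and 4.27 in the control (at least 1.42-fold higher), and lost its call with values under 16 set to 16 (limma adjusted p = 0.102). It was the only called gene of 3 tested in its list, and Erbb2 (-0.00) and Nrg1 (-0.41) were not called. Plaur was the only called gene of 3 tested in the plasminogen activator system, beside Serpine2 (0.01) and Plat (0.18).

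Of 7 Sertoli cell genes 1 was higher and 1 lower (28.6% called, near the share of all named genes): Wt1 was 36.2, 43.01 and 27.3 at 4 h, against 22.5, 21.5 and 17.7 in the control, 1.71-fold higher (limma adjusted p = 0.00216), and Dhh lower, while Clu (0.04) and Vim (-0.24) were not called. Of 3 tested genes of immune and blood cells 1 was lower, the endothelial receptor gene Kdr, at 8.74, 8.75 and 8.78 at 4 h, against 24.01, 20.3 and 20.98 in the control (at least 1.36-fold lower), and with values under 16 set to 16 its log2 difference was -0.44. Pecam1 (0.27) and Cd3e (0.04) were not called. The 1 tested gene of Leydig or peritubular cells, Acta2, had 0.18 and was not called. Of 3 tested late germ cell genes Crem had 0.19 and was not called.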
